A study of Homo sapiens with 4 samples.

Results

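The 50 genes described here encode proteins that make ribosomes, among them core proteins of the small nucleolar ribonucleoproteins (snoRNPs). Others are assembly factors of the small and the large ribosomal subunit, multi-role proteins of the nucleolus, and RNA polymerase I with its initiation factors. The genes were taken by symbol from a fixed list of names among the protein-coding rows of a gene count table with 58735 genes. Of the 50 names, 50 were found. HCC1954, the cells used, is an established line of human breast cancer with amplified ERBB2. RNA was sequenced from 2 samples that carried a scrambled control hairpin (shCON) and 2 samples that carried a hairpin against ZDHHC15 (shZDHHC15), a palmitoyltransferase. The cells of both groups were grown in RPMI-1640 with fetal bovine serum, and no other allele or agent was named for either group. The labels speak of stable knockdown and also of transient transfection of the hairpin plasmids. They do not say whether shZDHHC15 1 and 2 carried the same hairpin, nor whether the samples of a group came from separate cultures. The study's methods mention monoclonal cultures screened for hairpins, so a group may be 1 clone. The p-values therefore measure the spread between these samples, which may be technical. The comparison asks how the RNA levels of the ribosome synthesis genes differed between the knockdown and the control.

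Ribosomal RNA is transcribed by RNA polymerase I in the nucleolus. The precursor is cut, folded, methylated and pseudouridylated while ribosomal proteins join it, and assembly factors of many families bind and leave on the way to the finished subunits. Box C/D snoRNPs guide the methylation of ribose, and box H/ACA snoRNPs guide the change of uridine to pseudouridine. The genes of this machinery are known to be expressed together in growing cells, and many of their promoters are known to carry the E-box that MYC binds.

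Promoter sequences are shown first for 4 members, because their log2 fold changes run from -1.0 to 0.35 and they carry some of the motifs that were counted. All were taken from RefSeq on GRCh38.p14, from 250 bases before to 50 bases after the annotated start, and are written 5′ to 3′ on the strand of the gene. Capitals mark the E-box (CACGTG) in RRP9, FBL and UTP20, and the ETS motif (CCGGAAGT, here on the opposite strand) and the YY1 motif (AAGATGGCG) in POLR1C. RRP9 (chr3:51941855-51942154, minus strand) was the member with the lowest fold change, FBL (chr19:39846330-39846629, minus strand) the lowest of the box C/D proteins, POLR1C (chr6:43516839-43517138, plus strand) the lowest of the polymerase, and UTP20 (chr12:101279855-101280154, plus strand) the small subunit factor with the highest fold change.
RRP9: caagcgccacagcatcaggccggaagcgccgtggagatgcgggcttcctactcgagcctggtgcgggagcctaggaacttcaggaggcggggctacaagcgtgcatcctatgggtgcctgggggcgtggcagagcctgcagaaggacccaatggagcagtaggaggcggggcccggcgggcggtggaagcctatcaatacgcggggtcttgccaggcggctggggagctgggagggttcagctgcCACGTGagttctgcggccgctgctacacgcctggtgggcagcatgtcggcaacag
FBL: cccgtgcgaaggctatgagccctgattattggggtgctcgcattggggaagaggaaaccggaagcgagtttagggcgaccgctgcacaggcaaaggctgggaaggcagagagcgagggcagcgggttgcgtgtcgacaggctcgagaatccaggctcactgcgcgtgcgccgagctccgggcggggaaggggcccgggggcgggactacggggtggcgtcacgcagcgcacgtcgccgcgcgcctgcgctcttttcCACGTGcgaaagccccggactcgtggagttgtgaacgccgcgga
POLR1C: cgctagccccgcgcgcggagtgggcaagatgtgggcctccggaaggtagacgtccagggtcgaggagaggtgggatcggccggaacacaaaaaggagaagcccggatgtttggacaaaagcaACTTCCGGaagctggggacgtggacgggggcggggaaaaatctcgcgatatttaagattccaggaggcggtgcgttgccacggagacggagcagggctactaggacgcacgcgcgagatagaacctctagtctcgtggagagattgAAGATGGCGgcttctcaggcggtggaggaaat
UTP20: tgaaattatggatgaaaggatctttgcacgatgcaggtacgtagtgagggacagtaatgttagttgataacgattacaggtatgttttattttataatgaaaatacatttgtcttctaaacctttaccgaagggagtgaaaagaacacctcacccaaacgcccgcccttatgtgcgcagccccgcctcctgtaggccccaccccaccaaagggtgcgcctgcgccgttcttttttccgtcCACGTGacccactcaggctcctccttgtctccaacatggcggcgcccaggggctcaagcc
Counting from 0 at the start, the E-box began at position -5 in RRP9, at 6 in FBL and at -10 in UTP20. In POLR1C the ETS motif began at -128 and the YY1 motif at 18. Both strands were searched for each motif, and no motif overlapped another in these 4 sequences.

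The 4 libraries held between 17560982 and 19118704 counts. The 50 members took 0.736% and 0.735% of the counts in the shCON samples and 0.620% and 0.672% in the shZDHHC15 samples, so both knockdown libraries lay below both control libraries. ZDHHC15 itself had 17617 and 15716 counts in shCON, or 966 and 932 CPM (counts scaled to a common library size). This was above NPM1, the member with the highest CPM in shCON, at 832 and 826 CPM. The cause of that control level was not tested. ZDHHC15 had 0 counts in both shZDHHC15 samples, where 3 counts would have been up to 0.161 CPM. Hairpins commonly leave part of the RNA of their target, so a count of 0 in both samples is an unusually complete loss, and its cause was not tested. The mitochondrial share ran from 2.07% to 2.63% and was higher in both knockdown samples. The summed level of 6 epithelial markers was 13604 to 14611 CPM in shCON and 7966 to 7992 CPM in shZDHHC15. KRT8 went from 5775 and 6342 CPM to 1853 and 2084 CPM, and KRT18, EPCAM and ERBB2 were also lower in both knockdown samples. KRT19 was higher, at 18.8 and 20.1 CPM in shCON and 27.0 and 25.8 CPM in shZDHHC15. CDH1 lay between 347 and 378 CPM in all samples. Of the markers of other cells, 4 leukocyte genes summed to 0.415 to 0.658 CPM in shCON and 1.27 to 1.61 CPM in shZDHHC15, with CD3E at 0 in all samples. The 4 fibroblast genes summed to 5.81 to 7.17 CPM against 8.56 to 11.5 CPM, nearly all of it COL1A1. The 3 endothelial genes summed to 48.4 to 49.98 CPM against 96.7 to 102 CPM, from CDH5 and PECAM1, with VWF at 7 counts or fewer. The part of these differences in the results below was not tested.

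Most ribosome synthesis genes had lower RNA levels in shZDHHC15 than in shCON. At an adjusted p under 0.05 (edgeR's quasi-likelihood test, Benjamini-Hochberg adjustment over 15817 genes), 26 of the 50 members were lower, 1 was higher and 23 were not called. Over all genes tested, 20.3% were called lower and 21.7% higher. The median log2 fold change of the members was -0.30 (-19.0%), beside 0.02 for all genes tested. A negative value was found for 40 members and a positive value for 10, and the middle 50% of the values lay between -0.61 and -0.04. In 33 members both shZDHHC15 samples lay below both shCON samples, and in 9 both lay above, beside 35.3% and 37.2% of all genes tested. In bulk RNA, fewer cells of a type and less RNA per cell cannot be told apart.

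**Figure D1:**
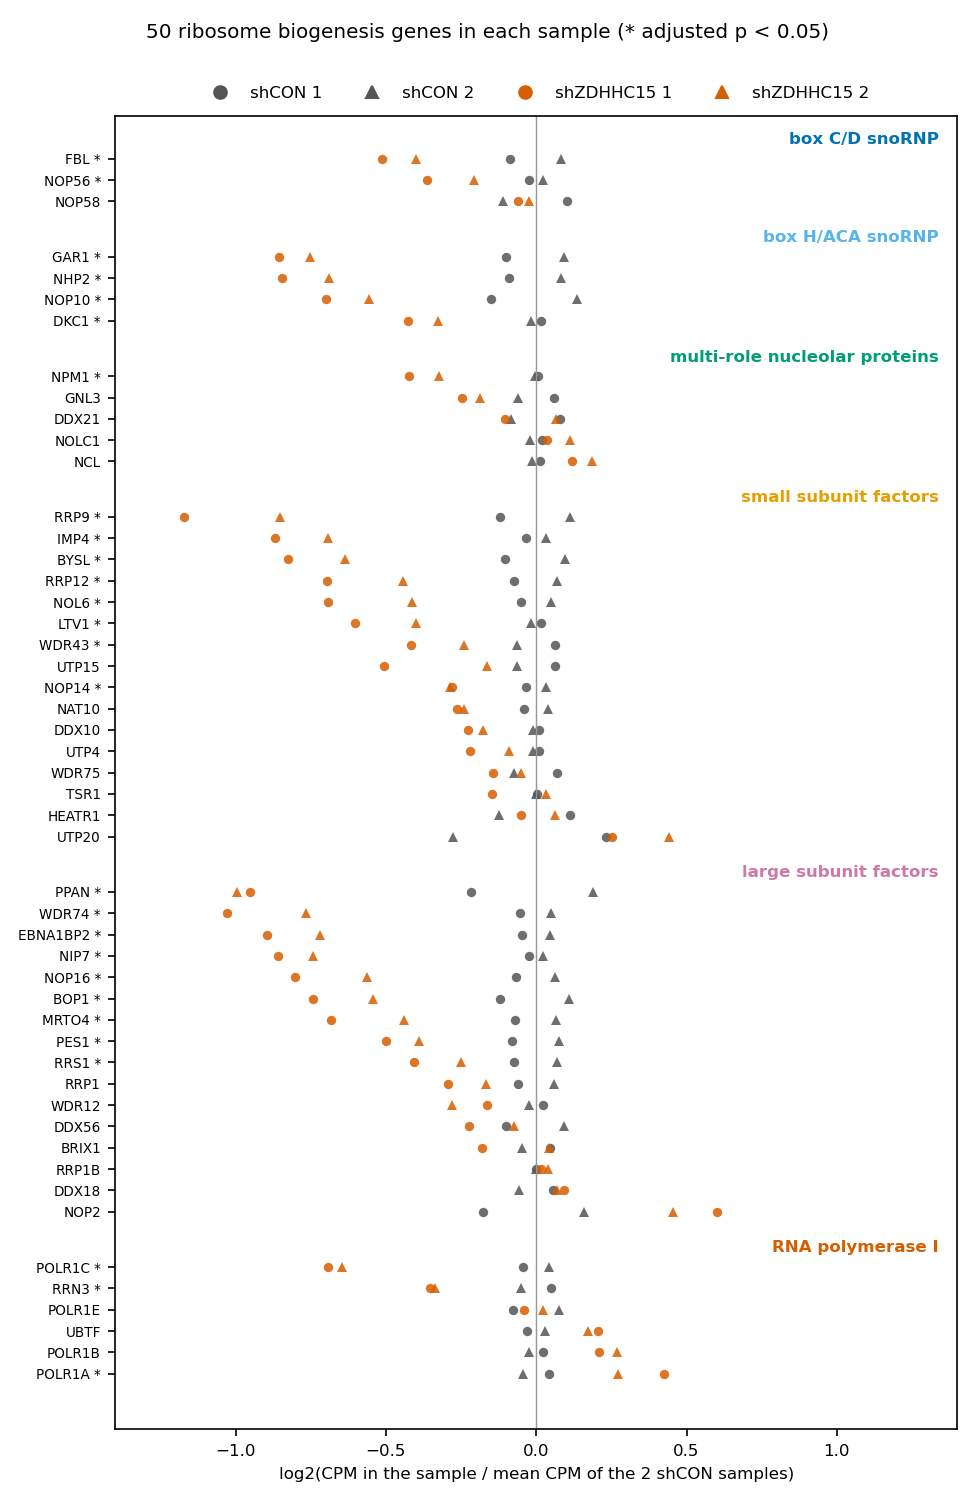
Level of each of the 50 members in each sample, as the log2 ratio of its CPM to the mean CPM of the 2 shCON samples, ordered by role and then by fold change. Grey marks are shCON and orange marks shZDHHC15 (circles sample 1, triangles sample 2), an asterisk marks an adjusted p under 0.05, and in 33 members both orange marks lie left of both grey marks.

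The 2 knockdown samples were not equally far from the controls. In CPM, 43 of the 50 members were higher in shZDHHC15 2 than in shZDHHC15 1, while 27 of 50 were higher in shCON 2 than in shCON 1. The median deviation of the members from their mean over the 4 samples was 0.14 and 0.17 in shCON and -0.20 and -0.10 in shZDHHC15 on a log2 scale, so shZDHHC15 2 stood closer to the controls. For all genes the same medians lay between -0.01 and 0.01. Without shZDHHC15 1, 18 of the 26 lower members were still called, and NOP56, DKC1, NPM1, NOP14, RRS1, LTV1, WDR43 and RRN3 were not. Without shZDHHC15 2 the members not called were NOP14 and RRN3, and without shCON 2 they were NOP14 and RRS1, while all 26 were called without shCON 1.

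The box H/ACA snoRNP was the role in which every member was called lower, beside 20.3% of all genes tested. Its 4 proteins had a median of -0.70 on the log2 scale. GAR1, a core protein of the particle, was at 34.9 and 39.8 CPM in shCON and at 20.6 and 22.2 CPM in shZDHHC15. Both knockdown samples were well below both controls, and the RNA fell by 42.7%, a log2 fold change of -0.80 ± 0.12 (SE, adjusted p = 0.000129). NHP2 fell by 0.77 and NOP10 by 0.63 on the log2 scale (adjusted p = 5.68e-05 and 0.000505), both small RNA-binding partners in the same particle. DKC1, the pseudouridine synthase, was at 203 and 198 CPM in shCON and at 149 and 160 CPM in shZDHHC15. Its groups did not overlap either, and its fall was the smallest of the 4, with a log2 fold change of -0.38 ± 0.09 (adjusted p = 0.00416). Per length, NOP10 was the most abundant of these RNAs, at a mean of 173 RPKM (reads scaled by depth and gene length) in shCON and 112 RPKM in shZDHHC15, and GAR1 the least, at 18.3 and 10.5 RPKM. NHP2 shares 27.4% of its exon bases with RMND5B on the opposite strand, and a stretch of up to 462 bases with another gene at near identity, so its value is less certain.

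Of the 3 members that are core proteins of the box C/D snoRNP, 2 were called lower, beside 20.3% of all genes tested. SNU13, a further core protein of this particle, is not a member. It had a log2 fold change of -0.24 and was not called (edgeR, adjusted p = 0.0666). FBL, the methyltransferase fibrillarin, was at 221 and 249 CPM in shCON and at 165 and 178 CPM in shZDHHC15. The groups did not overlap, and the RNA fell by 27.0%, a log2 fold change of -0.45 ± 0.10 (adjusted p = 0.0016). NOP56, which with NOP58 forms the scaffold of the particle, fell by 0.28 on the log2 scale (adjusted p = 0.0197). NOP58 was at 87.8 and 75.7 CPM in shCON and at 78.4 and 80.4 CPM in shZDHHC15. Its knockdown values lay between the control values, at a log2 fold change of -0.04 ± 0.10 (adjusted p = 0.78). NOP56 and NOP58 were 93.7 and 24.8 RPKM in shCON, so the scaffold RNAs were at unlike levels per length.

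RNA polymerase I was the role with calls in both directions. The median log2 value of its 6 members was 0.09, with 2 called lower, 1 called higher and 3 not called. These are 33.3% lower and 16.7% higher, beside 20.3% and 21.7% of all genes tested. With 6 genes, such shares do not set the role apart from all genes. POLR1A, the largest subunit and part of the catalytic centre, lies at chr2:86020216-86106155 on the minus strand of GRCh38. It was at 99.6 and 93.6 CPM in shCON and at 130 and 117 CPM in shZDHHC15. Both knockdown samples were above both controls, and the log2 fold change was 0.35 ± 0.10, a rise of 27.4% (adjusted p = 0.0105). This is the call that does not hold when transcript length and GC content are taken into account, as described below, and it is lost without shZDHHC15 1 (adjusted p = 0.164).

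POLR1B, which completes the catalytic centre, was at 72.5 and 70.1 CPM in shCON and at 82.4 and 85.8 CPM in shZDHHC15. The groups did not overlap, but the log2 fold change of 0.24 ± 0.10 missed the threshold (adjusted p = 0.064). POLR1C, a subunit that RNA polymerase III also uses, was at 73.4 and 78.0 CPM in shCON and at 46.8 and 48.3 CPM in shZDHHC15. It had the lowest value of the polymerase, -0.67 ± 0.10 on the log2 scale, and fell by 37.1% (adjusted p = 0.000118). POLR1E, a subunit outside the catalytic centre, was at 67.7 and 75.3 CPM in shCON and at 69.6 and 72.6 CPM in shZDHHC15. Its knockdown values lay between the control values, with a log2 fold change of -0.01 ± 0.10 (adjusted p = 0.965).

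The 2 initiation factors had fold changes of opposite sign. RRN3, which links the polymerase to the promoter of the ribosomal RNA genes, was at 105 and 98.4 CPM in shCON and at 79.7 and 80.6 CPM in shZDHHC15. It was lower in both knockdown samples, with a log2 fold change of -0.35 ± 0.10 (adjusted p = 0.0102). RRN3 shares a stretch of up to 870 bases at near identity with RRN3P1, RRN3P2 and RRN3P3 among others, so reads may have been split among the copies. UBTF, the factor that binds the ribosomal RNA genes and keeps their chromatin open, was at 108 and 113 CPM in shCON and at 128 and 125 CPM in shZDHHC15. Its groups did not overlap, at a log2 fold change of 0.19 ± 0.09 that was not called (adjusted p = 0.118).

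Many assembly factors of the small subunit form the processome around the nascent precursor, and others act later. Of the 16 members, 8 were called lower and 0 higher (edgeR, with 1, UTP20, higher at an unadjusted p under 0.05), and their median was -0.30. Over all genes tested, 20.3% were called lower and 21.7% higher. RRP9, a protein of the U3 snoRNP at chr3:51933430-51941941 on the minus strand of GRCh38, was at 98.4 and 116 CPM in shCON and at 47.4 and 59.3 CPM in shZDHHC15. Both knockdown samples were far below both controls. The RNA fell by 50.1%, a log2 fold change of -1.0 ± 0.12 (adjusted p = 1.44e-05), and RRP9 was the 1 member past -1. IMP4, another protein associated with U3, fell by 0.78 and BYSL, a late factor of the small subunit, by 0.73 on the log2 scale (adjusted p = 1.79e-05 and 6.96e-05). RRP12 and NOL6 had log2 fold changes of -0.56 and -0.54, LTV1 of -0.50, WDR43 of -0.32 and NOP14 of -0.28, all called. UTP15, NAT10, DDX10 and UTP4 lay between -0.32 and -0.15 with knockdown samples below the controls, and were not called. WDR75, TSR1 and HEATR1 overlapped between the groups, with log2 fold changes of -0.10, -0.05 and 0.01. UTP20, a scaffold protein of the processome, was at 29.6 and 20.8 CPM in shCON and at 30.0 and 34.2 CPM in shZDHHC15. Both knockdown samples were above both controls, though shZDHHC15 1 lay closer to shCON 1 than the controls lay to each other, and the log2 fold change of 0.35 ± 0.15 was not called (adjusted p = 0.0796). Without shCON 1, the higher control, UTP20 was called higher (adjusted p = 0.000353), and also without shZDHHC15 1 (adjusted p = 0.042).

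Among the 16 assembly factors of the large subunit, 9 were called lower and 0 higher (edgeR, 0 also at an unadjusted p under 0.05), and their median was -0.38. The shares over all genes tested were 20.3% lower and 21.7% higher. PPAN, at chr19:10106289-10111634 on the plus strand, was at 7.24 and 9.60 CPM in shCON and at 4.35 and 4.23 CPM in shZDHHC15. Its log2 fold change was the lowest of the role, -0.97 ± 0.21 (adjusted p = 0.00202). PPAN shares 59.8% of its exon bases with P2RY11 and the read-through gene PPAN-P2RY11, which had 0 counts in all samples, so its level is uncertain. WDR74 had a log2 fold change of -0.89, EBNA1BP2 and NIP7 of -0.80 each, NOP16 of -0.68, MRTO4 of -0.56 and RRS1 of -0.33, all called. BOP1, PES1 and WDR12 form the PeBoW complex, which is needed to process the precursor of the large subunit. BOP1 fell by 0.64 and PES1 by 0.44 on the log2 scale (adjusted p = 0.000176 and 0.00183), while WDR12 was at -0.22 ± 0.12 and was not called (adjusted p = 0.17). RRP1, DDX56, BRIX1, RRP1B and DDX18 lay between -0.23 and 0.08 and were not called. NOP2, a methyltransferase of ribosomal RNA at chr12:6556863-6568691 on the minus strand, had 12 and 14 counts in shCON and 21 and 20 counts in shZDHHC15. At this depth the log2 fold change of 0.53 ± 0.43 was not called (adjusted p = 0.346). NOP2 shares 54.4% of its exon bases with AC006064.6, which had 0 counts in all samples, so its count is not a reliable level.

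The multi-role nucleolar proteins, which take part in several steps of ribosome synthesis, had a median of -0.02 on the log2 scale. Of the 5, 1 was called lower, near the share of 20.3% over all genes tested. NPM1, the histone and ribosome chaperone nucleophosmin, was at 832 and 826 CPM in shCON and at 619 and 662 CPM in shZDHHC15. Both knockdown samples were lower, and the RNA fell by 22.8%, a log2 fold change of -0.37 ± 0.09 (adjusted p = 0.00278). A stretch of up to 834 bases at near identity with NPM1P27 makes this count less certain. NCL, nucleolin, was at 829 and 814 CPM in shCON and at 891 and 933 CPM in shZDHHC15. Its groups did not overlap in the other direction, at a log2 fold change of 0.15 ± 0.08 that was not called (adjusted p = 0.165). NPM1 and NCL were the most abundant members in CPM, and per length they were at 217 and 119 RPKM in shCON and at 167 and 132 RPKM in shZDHHC15. GNL3, DDX21 and NOLC1 had log2 fold changes of -0.22, -0.02 and 0.07, and none was called.

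Another 112 genes of ribosome synthesis, listed by role, gave a median value of -0.23 (log2), with 46 called lower and 7 higher. These are 41.1% lower and 6.25% higher, beside 20.3% and 21.7% of all genes tested. WDR18, a large subunit factor, fell to 41.7 and 42.6 CPM from 83.7 and 93.5 CPM in shCON, a log2 fold change of -1.07 ± 0.11 (adjusted p = 1.81e-06). CD3EAP, a subunit of RNA polymerase I, was at 21.1 and 25.3 CPM against 46.6 and 46.1 CPM, a log2 fold change of -1.0 ± 0.12 (adjusted p = 1.57e-05). Of the 15 genes listed for the polymerase and its factors, 7 were lower and 0 higher (edgeR, 0 also at an unadjusted p under 0.05), with a median of -0.27. These include POLR2E, POLR2F, POLR2H, POLR2K and POLR2L, subunits that several RNA polymerases share, which had log2 fold changes between -0.91 and -0.27. All 5 were called lower, and they were singled out within the list after their values were seen. Of the 10 other genes listed for the polymerase, 2 were called lower, near the share of 20.3% over all genes.

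The highest called values among these genes were 0.92 ± 0.14 for MDN1, 0.80 ± 0.17 for EFL1 and 0.52 ± 0.10 for NOP9 on the log2 scale (adjusted p = 8.14e-05, 0.00169 and 0.000955). MDN1, the large ATPase that releases factors from the large subunit, was at 39.9 and 31.0 CPM in shCON and at 74.3 and 60.4 CPM in shZDHHC15. EFL1, a GTPase of late large subunit maturation, was at 11.1 and 8.77 CPM against 19.4 and 15.4 CPM, and NOP9 at 49.97 and 47.4 CPM against 68.0 and 71.9 CPM. In all 3 both knockdown samples were above both controls. PWP2 had the lowest fitted value, -2.65 ± 0.82 (adjusted p = 0.0174), from 81 and 7 counts in shCON and 4 and 11 in shZDHHC15, so its groups overlapped and shCON 1 alone was high.

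**Figure D2:**
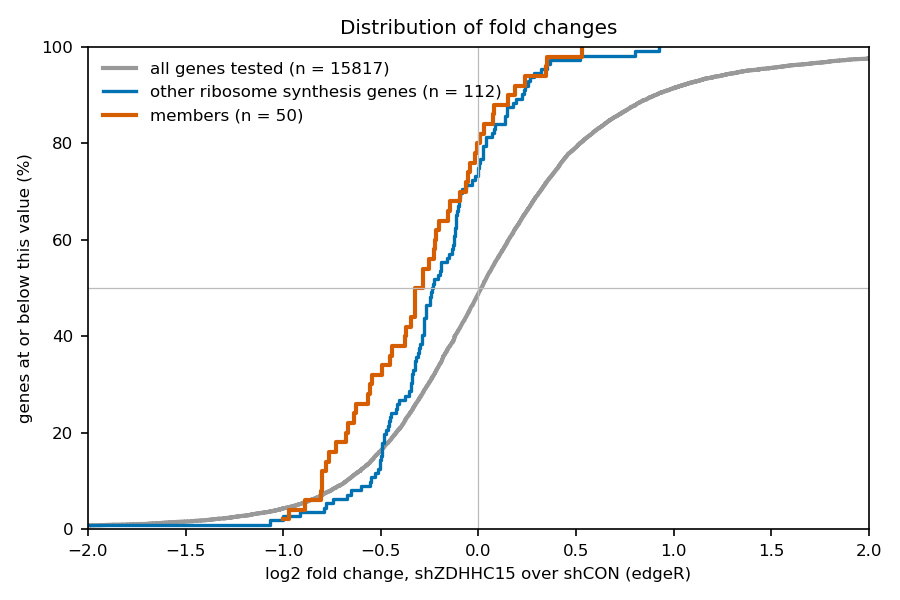
Cumulative share of genes (%) against the log2 fold change of shZDHHC15 over shCON for the 50 members, the 112 other ribosome synthesis genes and all 15817 genes tested. The curves cross 50% at -0.30, -0.23 and 0.02.

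The fold change moved with the length of the transcript, in the members and in all genes. In genes whose principal transcript is under 1000 bases the median log2 fold change of all genes was -0.23, and it was -0.18, -0.05, 0.08 and 0.27 in the classes from 1000, 2000, 3000 and 5000 bases upward. The members in the same classes had medians of -0.70 (2 genes), -0.67 (14 genes), -0.33 (12 genes), -0.22 (16 genes) and 0.02 (6 genes), so in each class they lay below all genes. Of the 14 members in the class from 1000 bases, 12 were called lower, and of the 6 with 5000 bases or more, 0 were lower and 1, POLR1A, was higher. Of all genes in the class from 1000 bases 30.2% were called lower and 11.6% higher, and of those with 5000 bases or more 10.0% were called lower and 41.3% higher. Spearman's rho between log2 fold change and transcript length was 0.70 over the 50 members, 0.35 over the 112 other genes and 0.27 over 15810 genes. With GC content it was -0.41, -0.31 and -0.14. These points share the same 4 libraries, and genes are not independent replicates. The box H/ACA RNAs are short, 554 to 2577 bases, and POLR1A, at 12749 bases, is the longest member.

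**Figure D3:**
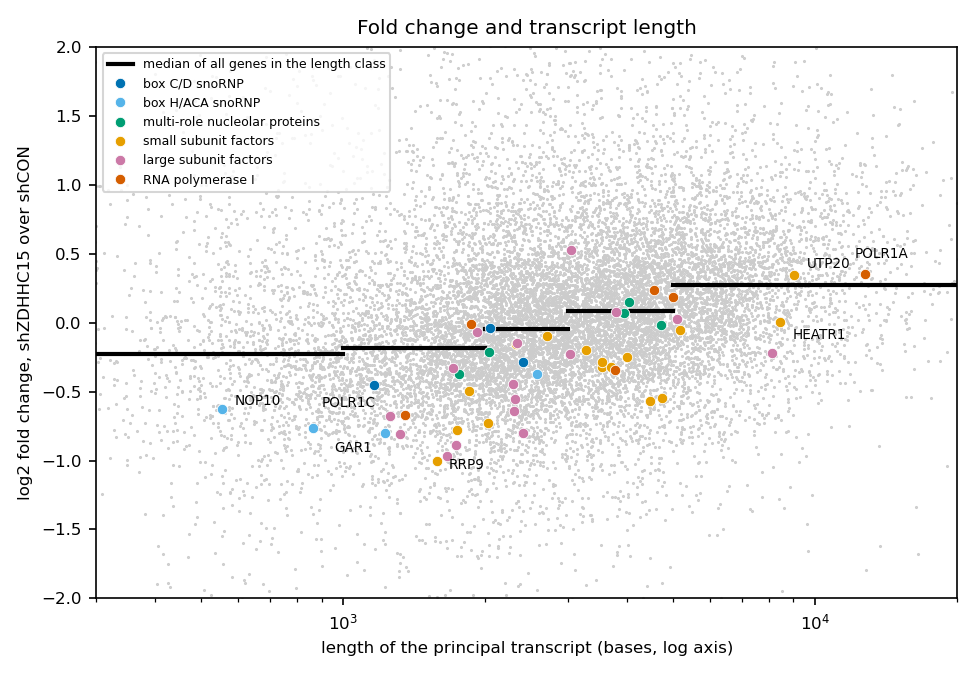
Log2 fold change of shZDHHC15 over shCON against the length of the principal transcript (bases, log axis), with all genes tested in grey, the members coloured by role and black bars at the median of all genes in each length class. The black bars rise from -0.23 to 0.27 with length, and most members lie below them.

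When a smooth function of transcript length and GC content was taken out of each library, a step chosen after seeing the data, 35 members were called lower and 0 higher (edgeR, and 0 also at an unadjusted p under 0.05), with a median of -0.38. All 26 members called lower before were among the 35. Over all genes, 25.9% were then called lower and 17.9% higher, with a median of -0.06, against 20.3% and 21.7% before. POLR1A went from 0.35 to -0.06 ± 0.07 (adjusted p = 0.533), and HEATR1, also a long transcript, from 0.01 to -0.34 ± 0.09 (adjusted p = 0.00639). POLR1B, UBTF and UTP20 went to 0.06, 0.01 and 0.00, while RRP9 was at -0.86, GAR1 at -0.71 and POLR1C at -0.60. RRN3 went from -0.35 to -0.50 ± 0.07 (adjusted p = 0.000163).

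**Figure D4:**
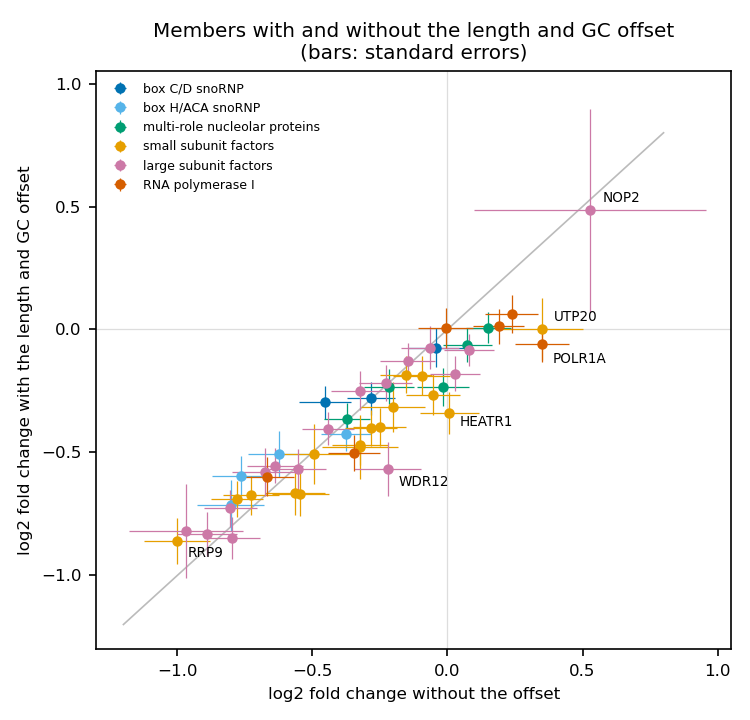
Log2 fold change of the 50 members with the length and GC offset (vertical axis) against the value without it (horizontal axis), coloured by role, with standard errors as bars and the line of equal values in grey. RRP9 is at -1.0 and -0.86, and POLR1A moves from 0.35 to -0.06.

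RefSeq promoters were matched for 42 of the 50 members. The E-box letters were found in 16 of them (38.1%), beside 7.3% of all 35116 promoters of the same length and 8.9% of 14896 protein-coding ones. The ETS letters were in 21.4% of the member promoters, 4.1% of all and 6.4% of the protein-coding ones. Those of YY1 were in 9.5%, 1.7% and 2.8%, and those of NRF1 (GCGCATGCG) in 4.8%, 1.9% and 2.8%. Of the 16 members with the E-box, 12 were called lower, with a median value of -0.47 (log2) and a range from -1.0 in RRP9 to 0.53 in NOP2. Of the 26 without it, 11 were called lower and 1 higher, with a median of -0.23. Over all genes tested, with or without the motif, 20.3% were called lower and 21.7% higher. Transcript length was not taken into account in these splits. The other motifs split the members in a like way or the opposite one. With the ETS letters 6 of 9 were called lower, at a median of -0.50 against -0.28 without them. With the YY1 letters it was 3 of 4, at -0.72 against -0.30, and with the NRF1 letters 1 of 2, at -0.29 against -0.32. Some promoters, such as those of LTV1, NOP10, UTP4 and IMP4, carry the E-box and another of these motifs, so the splits overlap. Whether any motif has a part in the fold changes was not tested. As the sequences above show, RRP9, FBL and UTP20 carry the same 6 letters within 10 bases of the start. Their log2 fold changes were -1.0, -0.45 and 0.35, the last not called. POLR1C has no E-box in its window and was called lower. These promoters were picked partly for their unlike fold changes, so this spread cannot speak for or against the motif. A match is a description of the letters, not of a bound site.

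The members lie on 20 chromosomes. Introns or exons of 8 members hold 27 annotated small nucleolar RNAs, and 4 of these 8 hosts were called lower, with a median value of -0.25 (log2), beside 22 of the 42 others, with a median of -0.32. Exons of 27 members overlap another annotated gene, and 16 members match another gene over 150 bases or more at 97% identity or higher. Beside NOP2 and PPAN, the shared part of the exon bases was 34.8% in LTV1, 27.4% in NHP2, 23.2% in HEATR1, 22.3% in WDR74 and between 18.2% and 20.8% in POLR1C, NOP16, NIP7, EBNA1BP2 and TSR1. The counts of those genes depend on how the authors assigned shared reads, which is not given in the sources used here.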

How the data were processed

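RNA-seq libraries of 2 shCON and 2 shZDHHC15 samples of HCC1954 cells were prepared by the NEBNext Ultra method, starting from total RNA. The authors deposited 1 table of raw counts of reads per gene, not normalized, for 58735 genes. The submitters' processing notes name HISAT2, StringTie, SAMtools and hg38 with no role or order. The use of strand in counting is not given in the sources used here, so reads of a gene and an overlapping antisense gene cannot be told apart. All 58735 gene identifiers, starts and ends matched GENCODE release 29 on GRCh38. All 4 count columns were used.

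Genes were filtered with filterByExpr (15817 kept, all 50 members among them) and scaled by TMM. The test was the two-sided quasi-likelihood F test (glmQLFit with legacy = FALSE, then glmQLFTest) of edgeR 4.0.16 in R 4.3.3 (limma 3.58.1), with Benjamini-Hochberg adjustment over all genes tested and a limit of 0.05. Each standard error is the absolute log2 fold change over the square root of F. CPM used TMM-scaled library sizes, RPKM the gene length in the table, and sample deviations log2(CPM + 0.5). A count of 0 allows up to 3 counts, 0.153 to 0.178 CPM per library, which covers counting error only. Replicates differed by more than counting noise (chi-square per degree of freedom 8.32 for shCON and 6.79 for shZDHHC15), and no 2 samples were 1 library deposited again. With 2 samples against 2, a permutation test of 1 value cannot go below p = 0.333, so none is given. The fit was tested on simulated data. No set test was run.

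Exon overlaps and near-identical stretches (BLAST+ 2.17.0) came from the GENCODE release 29 transcripts, and promoters from RefSeq. Alternatives were a block for the replicate number, glmTreat with a limit of 1.2 on the fold, each sample omitted in turn, DESeq2 1.42.0 (its size factors, and its Wald test), scaling by library size only or by upper quartiles, a filter of 10 counts in all samples, no filter, and edgeR's legacy quasi-dispersion. Splines of transcript length and GC content (5 degrees of freedom each) as an offset were added after seeing the data. Values in every sample are printed for the highest and lowest member of each role, all RNA polymerase I members and any member past 1 or -1 with a call, and for 3 called genes at either end of the other ribosome synthesis genes. The members, roles and gene lists were chosen with earlier results of these data known. The marker list leaves out 1 gene, which is not reported here.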

Additional observations from a re-analysis of the deposited data

How the results depend on the processing

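Over all genes, 20.3% were called lower and 21.7% higher in the main fit, and 17.1% and 16.7% by the DESeq2 Wald test. These shares were 16.1% and 24.8% by library size only, 7.79% and 7.56% with no filter, and 11.9% and 14.4% with glmTreat. The count of lower members was 22 by library size only and 22 with no filter. It stayed between 18 and 35 under every alternative run, and the DESeq2 Wald test gave 26. It was 18 with glmTreat against a fold change of 1.2 and 18 to 29 when each sample was left out, 18 of them without shZDHHC15 1. In those fits the lone sample is assumed to vary like the other group. The count of higher members was 4 by library size only, 2 with at least 10 counts in every sample, and 0 with no filter, with glmTreat and with the length and GC offset (edgeR, where 2, 0 and 0 members were higher at an unadjusted p under 0.05), and 1 to 2 when a sample was left out. The call of POLR1A was lost with no filter (adjusted p = 0.0596) and with glmTreat (0.183). The median log2 fold change of the members was -0.23 by library size only, which moved that of all genes from 0.02 to 0.09, -0.38 with the offset, and between -0.36 and -0.25 without 1 sample. With the offset POLR1A went to -0.060 ± 0.07, which was not called, and HEATR1 to -0.34. RRP1B, DDX18 and NOLC1 also went from a positive to a negative value, and POLR1E the other way, none with a call.

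Of the other ribosome synthesis genes, 24 were lower with glmTreat, and 22 to 50 when a sample was left out, 22 of them without shZDHHC15 1. The higher ones numbered 4 with no filter, 3 with glmTreat, 3 with the offset, and 3 to 10 when a sample was left out (3 without shZDHHC15 1, 4 without shZDHHC15 2). Of all genes, 2282 were higher with no filter, and glmTreat called 2274 higher and 1883 lower. The causes were not tested. With the replicate number as a block, 29 members were lower and 3 higher. Same-numbered samples hardly deviated together (correlation 0.06 over all genes and 0.08 over the members), so they share only a number. The replicate spread with 2 samples a group limits what can be called: standard errors of most members were near 0.10 on the log2 scale, and the low counts of NOP2 and PPAN gave 0.43 and 0.21.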
